A study of Sorghum bicolor and Setaria italica and Zea mays with 20 samples.

Results

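The intervals described here are the digital genomic footprints (DGFs) of *Setaria italica* bundle-sheath strands that recurred in whole leaves. A DGF is a stretch of 11 to 25 bp inside a DNaseI-hypersensitive site (DHS) in which the enzyme cut less than in the flanks. Members were selected on the positions listed for both tissues: a bundle-sheath DGF was counted as recurring when it and a whole-leaf DGF had at least 50% of the length of each in common. On scaffold 1 to scaffold 9 of the assembly Sitalica_164_v2, its chromosomes, 25503 of 157799 bundle-sheath DGFs recurred (16.2%), and their counterparts were 21.3% of the whole-leaf DGFs there. The 3 species with a bundle-sheath list had 452263 bundle-sheath DGFs in all.

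Bundle-sheath strands were represented by 2 samples and whole leaves by 3. Both came from leaves 3 and 4 of plants 18 days old, taken between 4 and 6 h after the lights came on, and many plants were pooled in each biological replicate. The strands were obtained mechanically, by shearing leaves in a blender and filtering, and no genotype other than the species and no treatment set the groups apart. A whole leaf also holds bundle-sheath cells, so its list is a mixture of cell types that includes the bundle sheath. The tissue labels were not checked against marker genes, since no gene annotation of this assembly was used. The authors combined the replicates into 1 list per tissue, so no value below has a replicate error and the number of reads behind each interval is unknown. Whether the lists precede or follow the removal of footprints that resemble the cleavage of naked DNA is not known. Since membership was chosen by the positions in both lists, the comparisons of recurring with other DGFs are given as descriptions with no test.

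DNaseI cuts open chromatin, and a protein that sits on DNA shields the bases beneath it. Footprints are used as predicted sites of transcription factor binding, which do not by themselves name the factor. In C4 grasses the bundle sheath surrounds the veins and carries the Calvin cycle, while the mesophyll around it makes the first fixation of CO2. In *S. italica*, *Sorghum bicolor*, and *Zea mays*, NADP-malic enzyme releases that CO2 in the bundle sheath. Recurring DGFs are therefore the positions at which protected DNA was called both in the isolated strands and in the tissue that contains them.

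All 25503 recurring DGFs lay in shared DHSs, meaning bundle-sheath DHSs with 1 bp or more in common with a whole-leaf DHS. This largely follows from the rule, because DGFs lie inside DHSs and those of a pair overlap. The bundle-sheath list held 38989 DHSs, of which 30261 were shared, and the whole-leaf list held 40003, of which 31749 were shared. Recurring DGFs made up 18.8% of the 135376 bundle-sheath DGFs in shared DHSs (95% Wilson interval 18.63 to 19.05) and 25.5% of the 99877 whole-leaf DGFs there. These intervals cover counting error over listed intervals only, and neighbouring intervals are not independent. The remaining 109873 bundle-sheath DGFs in shared DHSs are called other DGFs below. Of these, 87.1% also lay in a whole-leaf DHS, and over the 121240 bundle-sheath DGFs for which both lists had a DHS the recurring share was 21.0%. Whole-leaf DGFs covered 4.04% of the bases of the shared bundle-sheath DHSs.

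Most recurring DGFs were placed within a few bases of each other in the 2 lists, but few were identical. The median distance between the centres was 3 bp (quartiles 1 and 6), and the largest the rule let through was 12 bp. Centres coincided in 9.59% of pairs, were within 2 bp in 39.4%, and within 5 bp in 71.5%. The same start and end were listed for 1290 pairs (5.06%), while 80.5% of pairs shared neither edge. In 36.1% of pairs one DGF lay inside the other. The displacement had no preferred direction along the scaffold, since the whole-leaf centre was at the higher coordinate in 45.5% of pairs and at the lower in 44.9%. Pairs that were strong in both lists matched more closely. In the top decile of pairs by summed score rank, 9.68% were identical and 45.5% had centres within 2 bp. In the bottom decile these shares were 2.55% and 34.0%.

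The overlap threshold fell in a continuous distribution. Of the bundle-sheath DGFs in shared DHSs, 98831 overlapped no whole-leaf DGF and 11042 overlapped one by less than 50%, against 12418 with a smaller overlap of 50% to under 75%, 11795 with 75% to under 100%, and 1290 identical intervals. The median bundle-sheath score (the more negative, the stronger the footprint) was -14.7 without any overlap and -19.1 for identical intervals. Immediately inside the threshold, the 1392 members with an overlap of 52% had a median score of -16.6. Immediately outside it, the 949 DGFs with an overlap of 48% had a median of -16.5. The strongest of the members there lay on scaffold 8 at 39198222 to 39198246 (score -66.1 in bundle sheath, -43.5 in whole leaf), and the strongest excluded DGF on scaffold 7 at 32960720 to 32960732 (-62.1 and -81.8). The 13-bp interval of that excluded DGF lay almost wholly in its 25-bp whole-leaf counterpart, with 12 bp in common.

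Without any overlap rule, whole-leaf DGF centres gathered at the centres of bundle-sheath DGFs. In shared DHSs there were 129 whole-leaf centres per 1000 bundle-sheath DGFs in the 10-bp bin at the centre, against 22.1 in the bin 170 bp to the lower side and 21.1 in the bin 170 bp to the higher side. The count fell below these levels beside the peak, to 15.8 and 15.5 at 40 bp on either side, and stood at 27.7 and 26.2 at 80 bp. Around the top quartile of bundle-sheath DGFs by score the central bin held 231 whole-leaf centres per 1000 DGFs, and around the bottom quartile 63.7.

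**Figure D1:**
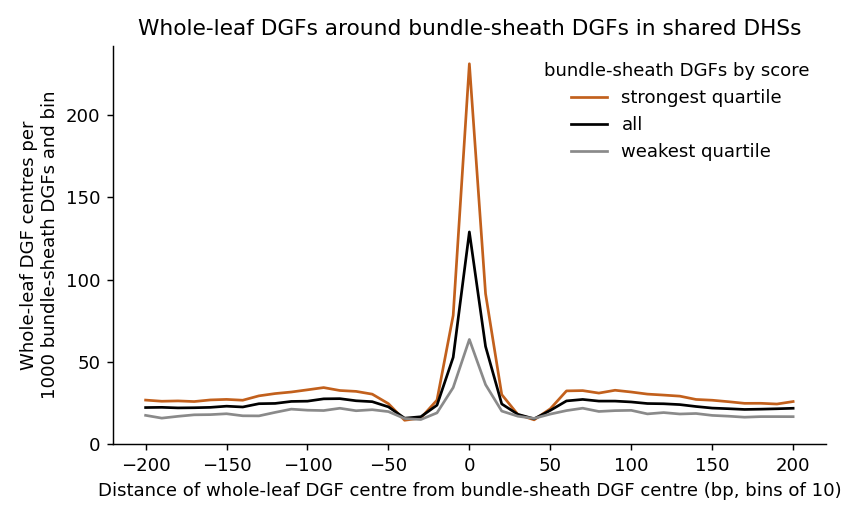
Whole-leaf DGF centres per 1000 bundle-sheath DGFs (vertical axis) by distance from the centre of a bundle-sheath DGF in a shared DHS (horizontal axis, bp, bins of 10), for the strongest quartile, all, and the weakest quartile of bundle-sheath DGFs by score. The central bin reaches 231, 129, and 63.7, and all 3 lines dip near 40 bp on either side.

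Recurring DGFs had stronger scores in both tissues. The Wellington score measures how strongly cuts are depleted in a footprint relative to its flanks. The median in the bundle-sheath list was -17.3 for recurring DGFs (quartiles -21.5 and -14.5) and -14.8 for other DGFs (quartiles -17.4 and -13.0). The distributions overlapped widely, and 72.0% of recurring DGFs were stronger than the median of the others. In the whole-leaf list the median was -22.8 for recurring DGFs (quartiles -29.6 and -18.1) and -19.4 for the other whole-leaf DGFs in shared DHSs (quartiles -23.9 and -16.2), and 67.5% of recurring DGFs were stronger than that second median. Set against the 95737 other DGFs that also lay in a whole-leaf DHS, with a median bundle-sheath score of -15.1, the share of stronger members was 69.4%. Whole-leaf scores ran lower throughout, with a median of -20.0 over the whole-leaf list and -14.7 over the bundle-sheath list, so a score is read here only against its own list.

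**Figure D2:**
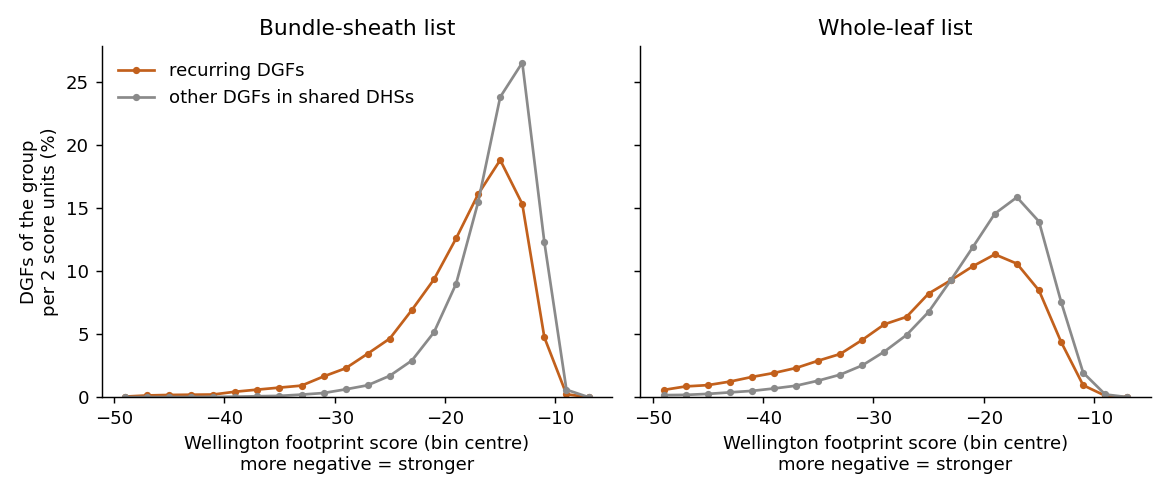
Share of DGFs per 2 score units (vertical axis, percent of the group) by Wellington score (horizontal axis, more negative is stronger) for recurring and other DGFs in shared DHSs, in the bundle-sheath list (left) and the whole-leaf list (right). Scores under -50 are not drawn, and the recurring line lies to the stronger side in both lists, with medians of -17.3 against -14.8 and -22.8 against -19.4.

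The recurring share declined at each step down the 10 deciles of score. Of bundle-sheath DGFs in shared DHSs, 42.9% recurred in the strongest decile, 28.2% in the next, 17.2% in decile 5, and 8.14% in the weakest. Across the 9 scaffolds the strongest decile ranged from 41.3% to 48.4% and the weakest from 7.34% to 8.74%, with no overlap between them. Of whole-leaf DGFs, 49.7% recurred in the strongest decile and 16.1% in the weakest. Most DGFs of the strongest bundle-sheath decile thus had no whole-leaf counterpart under the rule, although each lay in a shared DHS. That decile held 22.8% of all recurring DGFs, and the strongest 3 deciles held 49.7%.

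**Figure D3:**
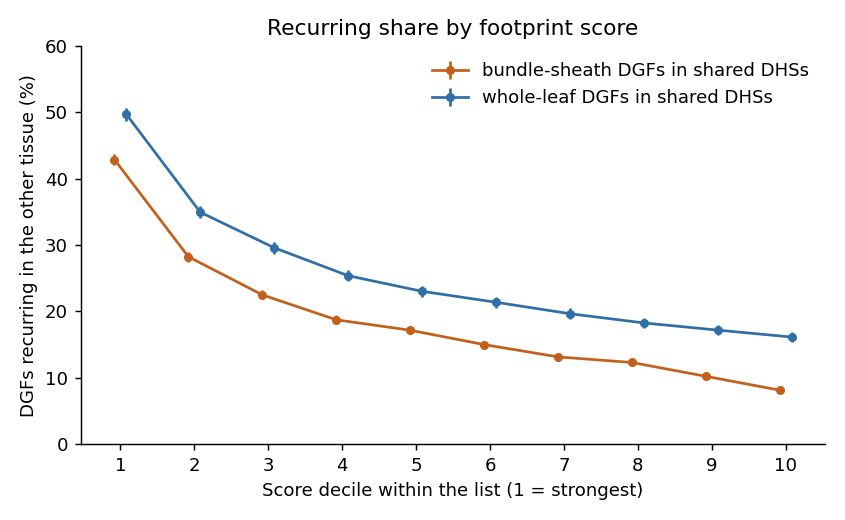
Share of DGFs in shared DHSs that recur in the other tissue (vertical axis, percent, with 95% Wilson intervals) by decile of score within each list (horizontal axis, 1 is the strongest). The strongest decile stands at 42.9% for bundle-sheath and 49.7% for whole-leaf DGFs, and the weakest at 8.14% and 16.1%.

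Strength in one tissue went with strength in the other to a moderate degree. Over the 25503 pairs, whose intervals overlap and lie in overlapping DHSs, Spearman's rho between the 2 scores was 0.45, and it lay between 0.42 and 0.47 on the 9 scaffolds. It was 0.48 for the 6384 pairs that were 25 bp long in both lists and 0.44 for the 9081 that were shorter in both. With scores divided at the quartiles of the DGFs in shared DHSs, 24.9% of members were in the strongest quartile of both lists, and 41.5% were in the same quartile of both. At the opposite ends, 944 members were in the strongest quartile in bundle sheath and the weakest in whole leaf, and 398 were the reverse. Members lay more often in the stronger quartiles, and more so in bundle sheath, so these unequal numbers need not mark a tissue difference. The shares that the uneven quartiles alone would give were not computed.

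The individual members show this range. The strongest in both lists was on scaffold 6, at 7806449 to 7806465, in a DHS of 375 bp with a fold enrichment of 6.94. Its score was -1000 in bundle sheath, the lowest value in that list, and -813 in whole leaf. The value of -1000 was given to 2 bundle-sheath DGFs, of which 1 recurred. The second strongest member of each list scored -144 in bundle sheath and -222 in whole leaf. The next by the sum of both ranks lay on scaffold 7 at 19211622 to 19211646 and had the same start and end in both lists. Its scores were -66.3 and -182, and it lay 92 bp from the summit of a DHS with 9 bundle-sheath DGFs, of which 2 recurred. Others of this kind were on scaffold 4 at 32037495 to 32037519 (-61.5 in bundle sheath, -178 in whole leaf), on scaffold 4 at 39674969 to 39674993 (-64.3 and -139), and on scaffold 7 at 17160729 to 17160747 (-61.1 and -158). These 5 members lay between 11 and 92 bp from their DHS summits.

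Unequal pairs were found as well. On scaffold 4, the member at 36339076 to 36339096 scored -41.3 in bundle sheath and -14.2 in whole leaf, so that its rank was in the strongest 0.890% of members in bundle sheath and at 93.8% in whole leaf, counted from the strongest. On scaffold 5, the member at 41477863 to 41477885 scored -31.1 in bundle sheath and -11.6 in whole leaf, where it was among the weakest. The reverse held on scaffold 3 at 45026161 to 45026177, with -12.6 in bundle sheath and -90.4 in whole leaf. It was the only bundle-sheath DGF of its DHS. The member on scaffold 5 at 46066784 to 46066806 ended at the same base in both lists and scored -12.0 in bundle sheath and -47.3 in whole leaf.

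Recurring DGFs were more often of the greatest listed length. The share at 25 bp was 43.8% of recurring DGFs and 36.1% of other DGFs, while the median was 23 bp in both. At the other end, 2.36% of recurring and 5.31% of other DGFs were 11 bp long. The recurring share climbed with every step in length, reaching 22.0% at 25 bp against 9.36% at 11 bp. The rule itself bears on the short end, since an interval of 11 bp cannot make up 50% of one of 23 bp. With an overlap of 1 bp as the rule, 43.3% of recurring and 35.4% of other DGFs were 25 bp long. Score tracked recurrence within classes of length. The score quartiles were here taken within each class, so they do not compare lengths at equal score. Among 25-bp DGFs 39.0% recurred in the strongest score quartile and 10.8% in the weakest, and among DGFs of 11 to 17 bp 23.5% and 8.58%. Within each length, between 65.5% and 74.1% of recurring DGFs were stronger than the median of the others of that length.

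Recurring DGFs lay nearer to the DHS summit, the point of greatest signal. The median distance between the DGF centre and the bundle-sheath summit was 194 bp for recurring DGFs (quartiles 87 and 515) and 342 bp for other DGFs (quartiles 121 and 828). Within 100 bp of the summit lay 31.3% of recurring and 21.0% of other DGFs, and beyond 1000 bp lay 12.3% and 20.1%. Measured from the whole-leaf summit, the medians were 199 bp for recurring and 369 bp for other DGFs. Part of this difference goes with the coverage of the whole-leaf DHSs, which spanned 75.9% of the bases of shared bundle-sheath DHSs. Restricted to other DGFs that also lay in a whole-leaf DHS, the median of the others was 280 bp, and 59.7% of recurring DGFs were nearer than it, as opposed to 65.0% without the restriction.

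**Figure D4:**
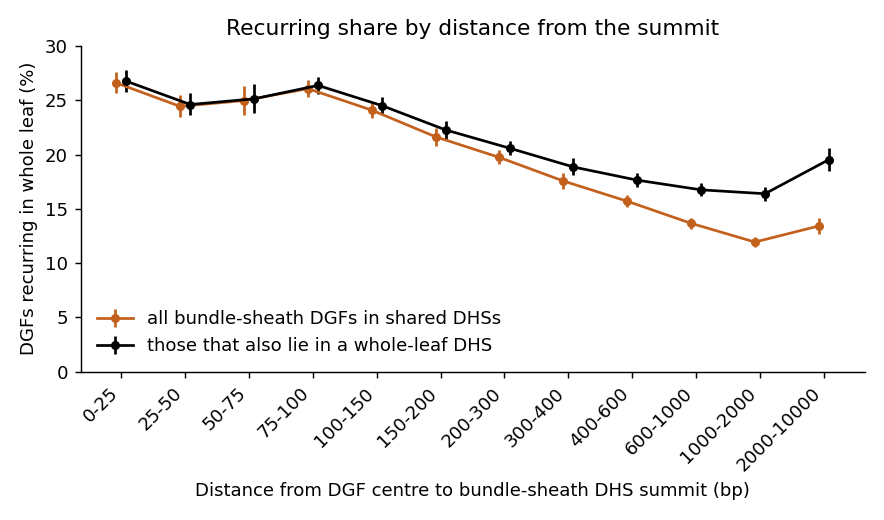
Share of bundle-sheath DGFs that recur in whole leaf (vertical axis, percent, with 95% Wilson intervals) by distance from the DGF centre to the bundle-sheath DHS summit (horizontal axis, bp), for all DGFs in shared DHSs and for those that also lie in a whole-leaf DHS. The share is 26.6% within 25 bp and 11.9% at 1000 to 2000 bp in the first set, and 16.4% at 1000 to 2000 bp in the second.

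The recurring share was nearly level over the first 100 bp and declined beyond. It was 26.6% at 0 to 25 bp, 26.1% at 75 to 100 bp, 19.7% at 200 to 300 bp, and 11.9% at 1000 to 2000 bp. In the farthest class, beyond 2000 bp, it was 13.4%, and 19.5% among DGFs that also lay in a whole-leaf DHS. The share declined with distance within each score quartile. In the strongest score quartile the share was 38.5% within 100 bp, 34.8% at 100 to 400 bp, and 27.1% beyond 400 bp. In the weakest quartile these shares were 16.4%, 10.9%, and 6.05%. Among DGFs that also lay in a whole-leaf DHS they were 38.6%, 35.2%, and 29.1% in the strongest quartile and 16.8%, 12.0%, and 9.84% in the weakest.

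The bundle-sheath DHSs that hosted recurring DGFs differed little in fold enrichment from those of other DGFs. The median fold enrichment was 3.40 around recurring and 3.37 around other DGFs, and the recurring share was between 18.1% and 20.6% in every quintile of fold enrichment. Their median peak scores were 184 and 173. Counted by DHS, the median whole-leaf fold enrichment was 5.19 with a recurring DGF and 4.55 with none. The recurring share varied more with bundle-sheath DHS length than with bundle-sheath fold enrichment. It was 22.7% in the quintile of DGFs in the shortest DHSs and 16.5% in the quintile in the longest. The number of whole-leaf DGFs per kb of the DHS is not independent of the rule, because it includes the counterparts of the members. Its sparsest quintile also begins at 0 whole-leaf DGFs, where no counterpart is available. In the quintile of DGFs with the densest whole-leaf DGFs 31.0% recurred, and in the quintile with the sparsest 6.83%. A denser whole-leaf list also offers more intervals to overlap, and the part of this in the difference was not tested.

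Of 29218 shared DHSs with a bundle-sheath DGF, 16132 held at least 1 recurring DGF (55.2%). A single one was held by 34.2%, 2 by 13.7%, 3 by 4.74%, and at least 7 by 0.130%, with a maximum of 10. DHSs with a recurring DGF were longer, with a median of 1664 bp as opposed to 1178 bp for those with none, and held a median of 5 bundle-sheath DGFs as opposed to 3. A DHS with more DGFs has more occasions to hold a member, and those with none include DHSs with 0 whole-leaf DGFs. Counted per DGF, the share ran the other way. It was 25.9% where the DHS held 1 bundle-sheath DGF and 17.0% where it held 9 or more. Complete recurrence was rare. Of the 20667 shared DHSs with at least 3 bundle-sheath DGFs, all DGFs recurred in 0.227% and none in 35.7%. Among the 13779 with at least 3 DGFs of each tissue, none recurred in 23.5%.

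The relation to score and summit was also present inside single DHSs. In the 14871 DHSs that held both recurring and other DGFs, the share of DGFs that recurred averaged 31.5% with each DHS counted once, and was 26.9% over all their DGFs. The strongest DGF of the DHS recurred in 48.6% of them and the weakest in 20.6%. The DGF nearest the summit recurred in 39.9% and the farthest in 22.9%. Where such a DHS held 2 DGFs, the stronger was the recurring one in 64.7% of 1628 cases. Compared within a DHS, the median score of the recurring DGFs was the stronger in 68.5% and their median summit distance the smaller in 61.4%.

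The 3 DHSs with the most recurring DGFs were long. On scaffold 7, the DHS from 19076463 to 19086024 held 24 bundle-sheath DGFs, of which 10 recurred, with scores in bundle sheath from -27.6 to -15.0. On scaffold 4, the DHS from 4414406 to 4419872 held 15, of which 9 recurred. On scaffold 3, the DHS from 16479672 to 16483574 held 14, of which 9 recurred, and the strongest of these had scores of -57.3 and -56.6 in bundle sheath and -65.1 and -79.0 in whole leaf. In all 3 the recurring DGFs had the stronger median, at -19.9, -20.3, and -26.9 for recurring and -17.5, -16.5, and -21.3 for other DGFs. Their members were far from the summit, at medians of 3405, 2152, and 1689 bp, against 3183, 2025, and 2073 bp for all bundle-sheath DGFs of these DHSs.

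The 47 DHSs with at least 3 bundle-sheath DGFs, all of them recurring, had a median length of 1070 bp and a median of 3 DGFs, as opposed to 1793 bp and 5 DGFs for the 20620 in which not all recurred. The 3 of these with the highest peak score are described here. On scaffold 8, all 3 DGFs of the DHS from 227217 to 228557 recurred, each with its whole-leaf centre displaced by 3 bp to the higher coordinate. Their scores were -45.0, -18.2, and -23.9 in bundle sheath and -45.3, -30.1, and -33.9 in whole leaf. On scaffold 8 again, all 3 DGFs of the DHS from 3462936 to 3463565 recurred, in a DHS of 630 bp with fold enrichments of 6.17 in bundle sheath and 10.6 in whole leaf. The remaining one of the 3 was on scaffold 3, from 20591321 to 20592850. At the other extreme, the DHS on scaffold 9 from 21651832 to 21660722 held 26 bundle-sheath DGFs and 8 whole-leaf DGFs, and none recurred. Its bundle-sheath DGFs had a median score of -12.0. Neither did any of the 22 bundle-sheath DGFs recur in the DHS on scaffold 9 from 9710556 to 9717184, nor any of the 20 in that on scaffold 2 from 38099719 to 38106831. Their median scores were -13.2 and -14.3, against -14.8 for all other DGFs. The whole-leaf DHSs matched to these 3 were shorter, from 21656038 to 21658166, 9710566 to 9713166, and 38100889 to 38106325. Some of the bundle-sheath DGFs may thus lie outside them.

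Recurring DGFs lay nearer to each other than other DGFs lay to them, at a median of 677 bp to the nearest recurring DGF as opposed to 1050 bp. They also lay somewhat nearer to bundle-sheath DGFs of any kind, at a median of 115 bp to the nearest as opposed to 130 bp for other DGFs. The part of this general spacing in the distances between members was not tested. Another recurring DGF lay in the same DHS for 60.8% of members, while 59.1% of other DGFs had a recurring DGF in theirs. Proximity differed more, with a further recurring DGF within 100 bp of 12.1% of members and a recurring DGF within 100 bp of 8.37% of other DGFs. The next DGF along the DHS recurred in 23.05% of 20086 cases after a recurring DGF and in 17.6% of 86072 cases after another. By the gap between them, these shares were 26.5% after a recurring and 19.7% after another DGF at 60 to 100 bp, and 16.3% and 14.3% at 400 bp or more. Gaps under 30 bp were few and were the exception, with 3.52% of 227 after a recurring and 19.1% of 1005 after another DGF. For both DGFs to recur at such a gap, the whole-leaf list must also hold 2 DGFs close together. Consecutive recurring DGFs had a median gap of 138 bp, and consecutive DGFs of which neither recurred 182 bp.

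Long runs of recurring DGFs were few. There were 17039 single members, 3164 runs of 2, 568 of 3, and 103 longer ones, of which 2 reached 7 in a row. One of those 2 was on scaffold 4 from 4492972 to 4494538, where 7 consecutive DGFs recurred over 1567 bp in a DHS with 8.

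Recurring DGFs were spread over all chromosomes at 63.6 per Mb, and no 1-Mb bin that held a bundle-sheath DGF in a shared DHS was without one. The recurring share ranged from 17.5% on scaffold 8 to 19.6% on scaffold 9. Scaffold 8 also had the lowest density, at 42.9 per Mb, and the smallest share of DHSs that were shared (66.2%). Scaffold 5 had the highest density, at 76.1 per Mb. In the outer 40% of the scaffolds 20.2% of bundle-sheath DGFs in shared DHSs recurred (interval 19.9 to 20.5), and in the middle 20% it was 16.1% (15.6 to 16.7). The outer share was above the middle share on all 9 scaffolds, by the least on scaffold 7, at 18.6% in the outer and 18.3% in the middle part with overlapping intervals. Scaffold 7 was also the one on which the density of recurring DGFs was lower in the outer part, at 52.5 per Mb, than in the middle, at 66.6 per Mb.

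Scores moved with position in the same way. The median score of bundle-sheath DGFs in shared DHSs was -15.6 in the outer and -14.2 in the middle part. Within the strongest score quartile 33.7% recurred in the outer and 30.6% in the middle part. The shares were 18.9% and 18.2% in score quartile 2, 13.9% and 14.1% in quartile 3, and 10.1% and 9.01% in quartile 4. The outer share was thus the higher in every score quartile but quartile 3. Neighbouring DGFs are not independent, and the part of score in the difference by position was not tested. Among whole-leaf DGFs in shared DHSs 26.5% recurred in the outer and 22.96% in the middle part.

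**Figure D5:**
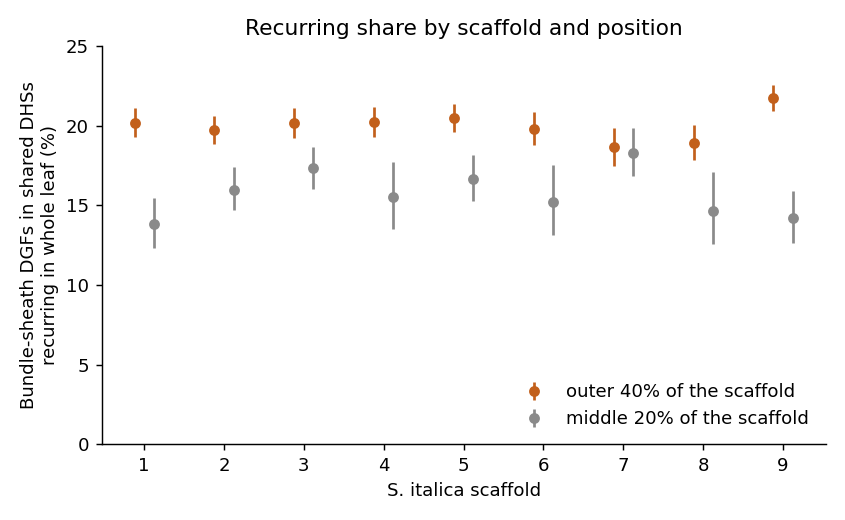
Share of bundle-sheath DGFs in shared DHSs that recur in whole leaf (vertical axis, percent, with 95% Wilson intervals) on each of the 9 scaffolds (horizontal axis), in the outer 40% and the middle 20% of the scaffold. The outer share is the higher on every scaffold, with 21.7% and 14.2% on scaffold 9 and 18.6% and 18.3% on scaffold 7.

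Single regions varied around these averages. Over the 396 bins of 1 Mb with at least 50 bundle-sheath DGFs in shared DHSs, the median recurring share was 18.5% (quartiles 15.8 and 20.5). The share went with the number of such DGFs in the bin (Spearman's rho 0.44, n = 396 bins, which share scaffolds and neighbours). The most recurring DGFs, 126 of 569, were in the bin from 32 to 33 Mb on scaffold 5, followed by 125 of 585 from 7 to 8 Mb and 123 of 578 from 33 to 34 Mb on the same scaffold. The highest share, 27.4% of 391 DGFs (23.2 to 32.0), was from 49 to 50 Mb on scaffold 9, and the lowest, 7.06% of 85 (3.28 to 14.6), from 26 to 27 Mb on the same scaffold. Both bins were picked as extremes of the 396, which their intervals do not take into account.

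The same rule was applied to the other C4 species for scale. *S. bicolor* had 18008 recurring DGFs, 15.9% of the bundle-sheath DGFs in its shared DHSs, and *Z. mays* had 7458 in shared DHSs, or 5.07%. The lists differed in length, with 157799 bundle-sheath and 119810 whole-leaf DGFs in *S. italica*, against 126001 and 139429 in *S. bicolor* and 164252 and 79378 in *Z. mays*, and how far the list lengths set these shares was not tested. For *Z. mays*, the values that follow were taken over all 7494 recurring DGFs, including those outside shared DHSs. Recurring DGFs were stronger than the median of the others in 72.0% of cases in *S. italica*, against 68.2% in *S. bicolor* and 61.2% in *Z. mays*. They were nearer to the summit than the median of the others in 65.0%, 67.1%, and 64.5%. Intervals of 25 bp made up 43.8% of recurring and 36.1% of other DGFs in *S. italica*, against 48.1% and 45.6% in *S. bicolor* and 57.0% and 56.3% in *Z. mays*.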

How the data were processed

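Per the labels and methods, DNaseI-treated nuclei were sequenced, and the authors mapped reads with Bowtie2 to Sitalica_164_v2, removed those with a MAPQ under 42 using SAMtools, and called DHSs with MACS2, keeping as many as the irreproducible discovery rate allowed. DGFs were called with Wellington on pooled replicates. The methods also describe removal of footprints resembling naked-DNA cleavage, but the bundle-sheath lists used here hold more DGFs than the corrected total in the text of the study, so whether they are from before or after that step is not known. The deposited DGF lists give a Wellington score, not normalized between lists. The deposited DHS lists give a peak score, a summit position, and the peak caller's ratio of signal to background (fold enrichment). The authors' lists of differential DGFs hold positions from their own comparison and were not used, nor were the *Brachypodium distachyon* lists and the naked-DNA samples.

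Lists were intersected in Python 3.11.15 with pandas 2.3.3, NumPy 2.4.6, and SciPy 1.17.1. Overlap counts equalled those of BEDTools 2.31.1 in 3 of 3 species, and planted overlaps in simulated lists were recovered. Positions count from 1. Scaffold length was taken as the largest listed position. Shares carry 95% Wilson intervals. Score deciles and quartiles were taken over the DGFs in shared DHSs of each list. For the classes of length, score quartiles were taken within the class.

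The members, the comparisons, and the rule for regions described by position were chosen with earlier results of these data known. That rule took extremes of score rank, rank difference, overlap, number recurring per DHS, and share per bin. No genome or annotation of this assembly was used, so genes are not named and no sequences are printed.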

Additional observations from a re-analysis of the deposited data

How the results depend on the processing

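No paired analysis was possible because the authors combined the replicates into 1 list per tissue, and for the same reason no replicate could be left out. The lists carry no read depth, so the effect of depth on recurrence was not tested. Of 46 alternative values, 40 compared recurring with other DGFs or 2 parts of the scaffolds, and none of these 40 reversed the direction. Of the 46, 9 stayed within the interval of the reported value (for the count, within 1.5 times). With 75% of both lengths, with the same start and end, and with each list restricted to scores stronger than its median, the count was 13085, 1290, and 13418, against 25503 as reported.

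The other measures were recomputed with, in order, 1 bp of overlap, 75% of both lengths, the same start and end, each list above its median strength, and a bundle-sheath list shortened to the whole-leaf number. Members stronger than the median of the others in bundle sheath were 70.6%, 74.1%, 78.4%, 72.7%, and 69.7% (72.0% as reported). In whole leaf they were 66.2%, 69.5%, 75.3%, 70.4%, and 70.9% (67.5% as reported). Members nearer the summit were 67.0%, 63.5%, 63.5%, and 63.7%, leaving out the identical intervals (65.0% as reported). Another member in the same DHS was found for 71.3%, 41.6%, 7.21%, 55.04%, and 60.2% (60.8% as reported), against 71.0%, 38.5%, 4.88%, 43.1%, and 60.0% of other DGFs with a member in theirs (59.1% as reported). The outer share was 28.7%, 10.4%, 1.08%, 19.4%, and 21.9% (20.2% as reported), against 23.6%, 8.01%, 0.598%, 14.4%, and 19.1% in the middle (16.1% as reported). Members of 25 bp were 49.2%, 62.9%, and 46.1% with 75% of both lengths, the same start and end, and each list above its median strength (43.8% as reported). Of other DGFs, 36.3%, 37.3%, and 38.4% were of that length in these settings (36.1% as reported).

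With shared DHSs defined by 50% of both lengths, members stronger in bundle sheath were 70.6% and nearer the summit 62.6%. From the whole-leaf summit 66.2% were nearer. The outer 20% of the scaffolds, set against the middle 40%, had a share of 20.8% and 17.2%. Restricting the others to whole-leaf DHSs, chosen after the data were seen, gave 69.4% stronger, 59.7% nearer, and an outer share of 22.2% against 18.5% in the middle.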

Other observations

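Bundle-sheath DGFs were unevenly spaced around the summits of shared DHSs. Their number was 4049 at 50 to 75 bp from the summit and 12119 at 75 to 100 bp, of which 1011 and 3159 recurred, so that the recurring share was nearly the same in both classes (24.97% and 26.1%). The bundle-sheath and whole-leaf summits were a median of 55 bp apart in shared DHSs with a recurring DGF and 50 bp apart in those with none, and lay within 50 bp of each other in 48.1% and 50.3%. The median whole-leaf fold enrichment was 5.19 in DHSs with a recurring DGF and 4.55 in those with none, and the median bundle-sheath fold enrichment 3.35 and 3.21.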
